A study of Mus musculus with 3 samples.

Results

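The simple epithelial genes described here, 10 in all, were read from 3 mouse arrays. They are the keratins Krt7, Krt8, Krt18 and Krt19, the cadherins Cdh1 and Cdh3, the adhesion molecule Epcam, the splicing regulator Esrp1, the membrane protease St14 and its inhibitor Spint1. Their probes were found by gene name, and they are 10 of the 20389 genes tested, a list drawn up with earlier results of these data known. The tested RNA came from mouse embryoid bodies that carry Dido3deltaCT+HADido3CT, meaning that the Dido3 protein lacks its C-terminal region while that region, encoded by exon 16, is overexpressed. These are called mutant+CT here. The other RNA came from wild-type embryoid bodies. Both kinds are aggregates of embryonic stem cells grown in suspension, in the absence of LIF, up to day 10, with 3 biological replicates each. Each array carried 1 mutant+CT RNA and 1 wild-type RNA, with mutant+CT in Cy3 on arrays 1 and 3 and in Cy5 on array 2. No group carried the deletion alone or the overexpressed region alone, so their effects cannot be told apart. The stem cell line, the number of clones and the promoter of the construct are not given in the sources used here.

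Simple epithelia are single cell layers, and their cells are held together by E-cadherin (Cdh1), which binds the same molecule on the next cell. Their cytoskeleton is built from keratin filaments, in which a type II keratin (Krt7, Krt8) must pair with a type I keratin (Krt18, Krt19). Esrp1 sets the epithelial splice forms of other transcripts, and matriptase (St14) is a surface protease held in check by Spint1. In early mouse development many of these genes are active in trophoblast and visceral endoderm. Krt8 and Krt18 are also active in parietal endoderm, and Cdh1 and Epcam in undifferentiated stem cells.

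As a whole the 10 genes were modestly higher in mutant+CT, and none passed the test. The median of their log2 ratios (mutant+CT over wild type, 0 meaning equal) was 0.67, against 0.00 for all tested genes, with medians over the 10 genes of 0.54, 0.71 and 0.92 on arrays 1, 2 and 3. Of 30 single-array ratios, 27 were above 0. The exceptions were Krt7 on array 1 and Cdh1 and Epcam on array 2. Of all tested genes, 51.1%, 50.8% and 51.1% were above 0 on arrays 1, 2 and 3. The 10 genes share the 3 arrays, so these 30 ratios are not separate observations. With limma and Benjamini-Hochberg adjustment over all genes, 0 of 10 had an adjusted p under 0.05, as did 0% of all tested genes, and the smallest adjusted p among the 10 was 0.151, that of Cdh3. By unadjusted p under 0.05 in the same fit, 6 of 10 were higher and 0 lower, against 9.04% of all tested genes that were higher by that rule. That count was 2 (Cdh3 and St14) without array 3, against 5.1% of all genes, and also 2 on Agilent's processed signals (9.87%) and with the pairing by array ignored (7.24%). A ratio above 0 on every array was found for 7 of 10, against 20.3% of all tested genes. At least 2-fold higher on every array were 0 of 10, against 1.9% of all genes. The fit without array 1, 2 or 3 gave 8, 9 and 7 genes above 0 on both remaining arrays, against 28.3%, 36.7% and 25.8% of all genes.

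All 10 genes were well above background in both RNAs of every array, at all 13 probes, so no value below is a bound. The arrays lie on 1 slide, no spot was saturated, and between 68.1% and 78.5% of the gene spots of an RNA were well above background. Across all genes the ratios of arrays 1 and 3, which share a dye orientation, correlated at 0.545 (Pearson), those of arrays 2 and 3 at 0.376 and those of arrays 1 and 2 at 0.183. Since only array 2 has the swapped dyes, what is particular to it cannot be told apart from a dye effect. The 4 probes of the targeted gene, Dido1, had mean ratios of 0.77, -2.39, 1.79 and 3.53 (n = 3 each). The last of these, probe A_66_P128564, had 3.42, 3.53 and 3.66 on the arrays and passed limma over all probes (adjusted p = 0.0435). The probes thus disagree in sign, and their places relative to the deleted part are not determined here. Fewer cells of a type and less RNA per cell cannot be told apart in such bulk RNA.

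The probes decide what each ratio reads, so the first 30 of the 60 bases are shown for the genes whose probes disagreed and for both cadherins. Positions are mm9 coordinates from the scanner files.
Krt8 probe A_66_P128079, chr15:101827138-101827197, minus strand: ccatccaaacccaattcagttgtattttct
Krt8 probe A_55_P2128501, chr15:101828827-101828886, minus strand: agatctccgagatgaaccgcaacatcaacc
Esrp1 probe A_55_P2182586, chr4:11260208-11260267, minus strand: ctgtgcattcccaatcttctgtctccctgt
Esrp1 probe A_55_P2033767, chr4:11284629-11284688, minus strand: tcagctgaggagatgaactttgtgttaatg
Cdh1 probe A_51_P137336, chr8:109193812-109193871, plus strand: acattctaacgggaaaaaggagacaagacc
Cdh3 probe A_66_P113868, chr8:109079933-109079992, plus strand: tattttccctgttatgtgctgtagatggag
The 2 Krt8 probes lie 1629 bases apart and the 2 Esrp1 probes 24.4 kb apart, whereas the 2 Spint1 probes share 3 bases and so read nearly the same place. The Epcam probe covers 829 bases of chromosome 17 with its 60 bases, so its alignment has a gap. Krt8 and Krt18 are neighbours on chromosome 15, as are Cdh3 and Cdh1 on chromosome 8, with 0 protein-coding genes between them in the RefSeq annotation.

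**Figure D1:**
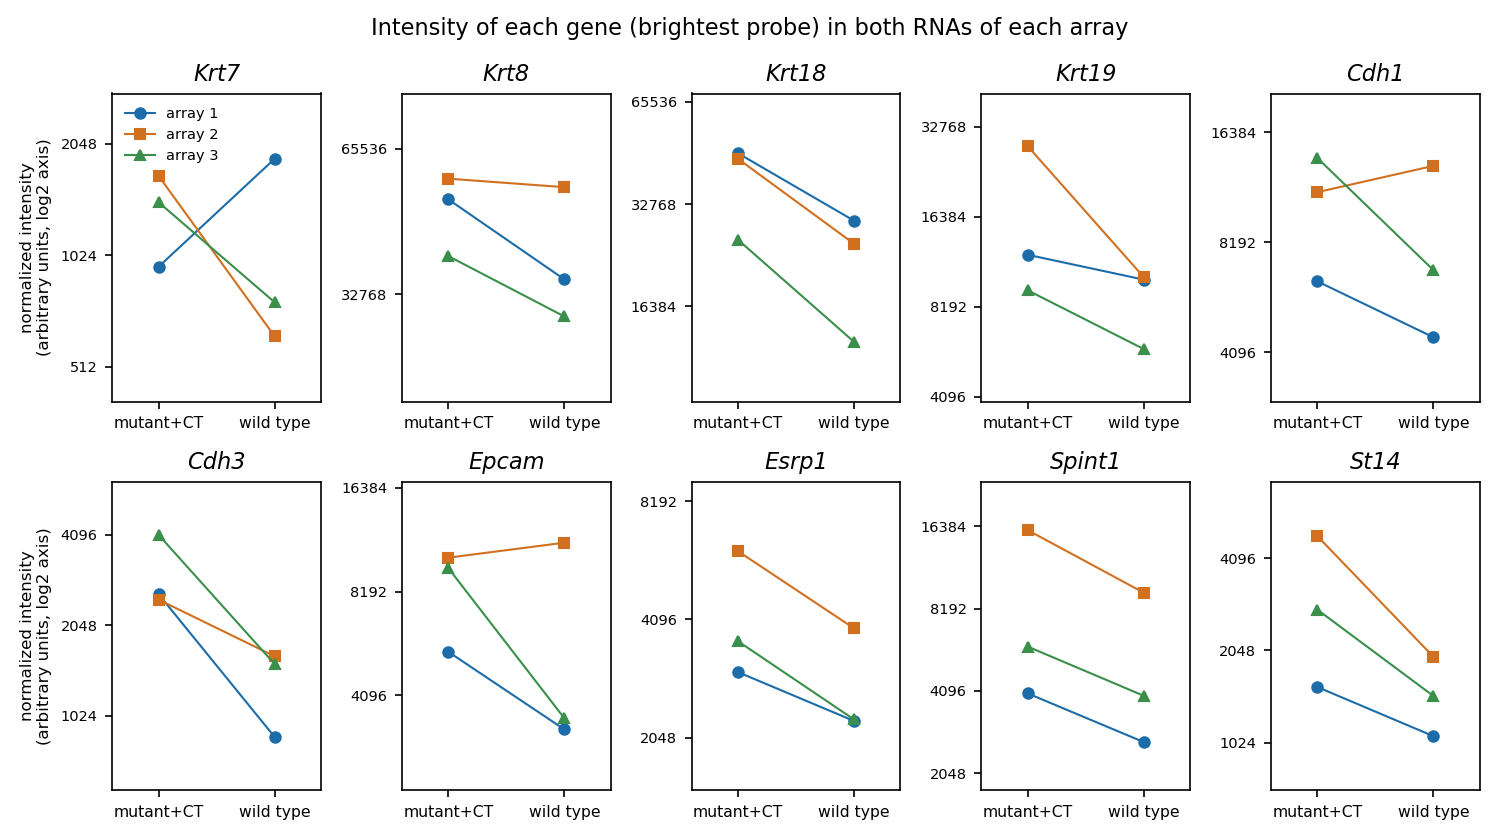
Normalized intensity (arbitrary units, log2 axis, each panel with its own range) of the brightest probe of each gene in mutant+CT and wild type, with a line joining the 2 RNAs of an array. Lines run downward from mutant+CT to wild type in 27 of 30 cases, and only for Cdh3 do the 3 mutant+CT points lie above all 3 wild-type points.

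Among the type II keratins, Krt8 was slightly higher and Krt7 differed in sign between arrays. Krt8, read by its brighter probe (A_66_P128079), had normalized intensities of 51524, 56870 and 39334 in mutant+CT on arrays 1, 2 and 3, against 35202, 54616 and 29508 in wild type. Intensities are background-corrected and dye-normalized spot brightness, and they compare the RNAs at 1 probe, not different probes. The arrays were not scaled to each other. Brightness on different arrays, and any overlap of the groups, therefore also carries differences between arrays, which the ratio within an array does not. The groups overlap, and the pair of array 2 is nearly level. The log2 ratio of Krt8 was 0.34 ± 0.25 (SD, n = 3), or 1.27-fold, with a limma 95% interval of -0.24 to 0.92 and adjusted p = 0.551. Its other probe, dimmer and in the transcript NM_031170, gave 0.12, 0.29 and 0.09 on the 3 arrays, with a mean of 0.17 ± 0.11. The array with the lowest ratio at one Krt8 probe had the highest at the other. Krt7, a type II keratin of ducts and of trophoblast, had 954, 1676 and 1423 in mutant+CT, against 1868, 618 and 764 in wild type. Its wild-type RNA was the brightest of all 6 on array 1 and the dimmest on array 2. The Krt7 ratios were -0.97, 1.44 and 0.90, so its mean of 0.46 ± 1.26 (SD, n = 3) had adjusted p = 0.742 in limma and was -0.035 without array 2 and 1.17 without array 1.

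Both type I keratins were higher on every array, as Krt8 was, with closer ratios over the arrays for Krt18 than for Krt19. Krt18, the usual partner of Krt8, had 46233, 44527 and 25717 in mutant+CT, against 29267, 25028 and 12868 in wild type. Within each array the mutant+CT RNA was the brighter one, although the mutant+CT value of array 3 lies within the wild-type range. The Krt18 ratios were 0.66, 0.83 and 1.00, with a mean of 0.83 ± 0.17 (SD, n = 3), or 1.78-fold, a 95% interval of 0.28 to 1.38 and adjusted p = 0.181 (limma). Krt19, the smallest keratin and one that lacks the usual tail, had 12244, 28268 and 9313 in mutant+CT, against 10110, 10311 and 5924 in wild type. The mutant+CT RNA of array 2 stands well above the other 5. Its ratios were 0.28, 1.46 and 0.65, with a mean of 0.79 ± 0.60 (SD, n = 3) and adjusted p = 0.298 (limma). Without array 2 the mean of Krt19 was 0.46 and that of Krt8 was 0.48.

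The ratio of Krt18 exceeded that of Krt8 on each array, by 0.11, 0.77 and 0.58, or 0.49 ± 0.34 on average (SD, n = 3). The exact two-sided sign-flip test gave p = 0.25, the smallest that 3 arrays allow, and an adjusted p of 0.312 over 5 such pairs, which were chosen after values were seen. The Krt8 spots had 0 saturated pixels on every array.

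**Figure D2:**
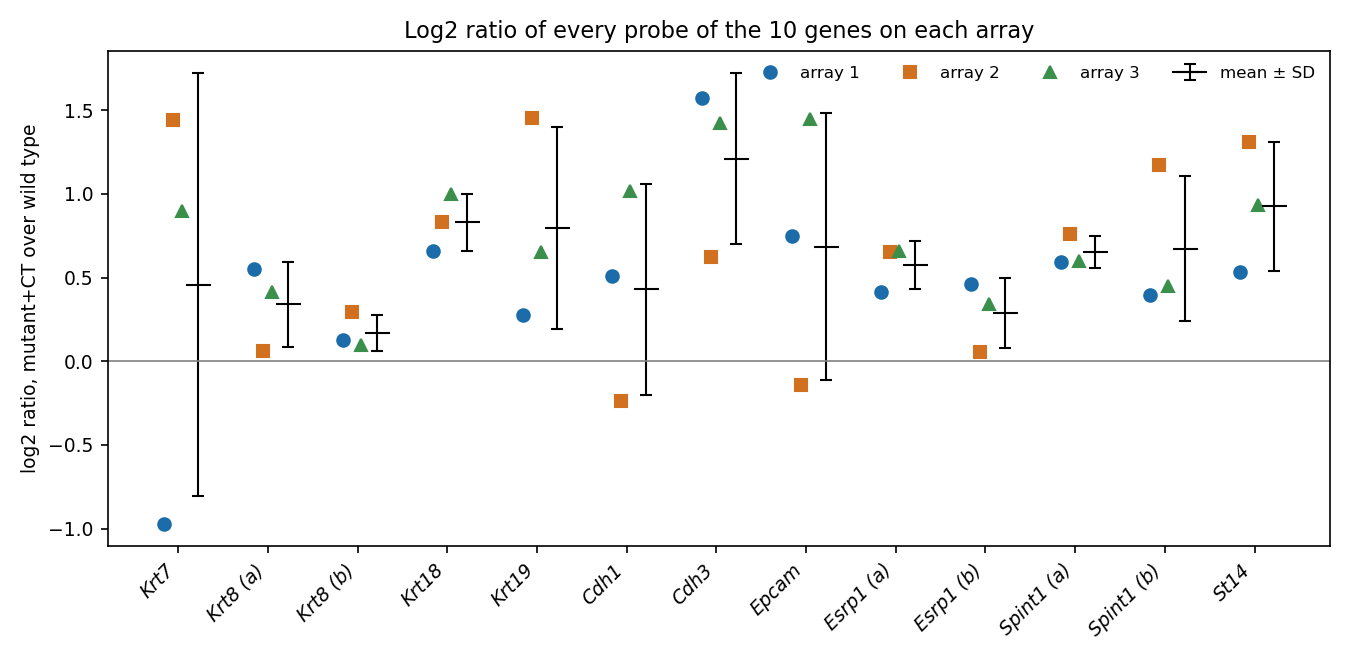
Log2 ratio (mutant+CT over wild type) of all 13 probes on arrays 1, 2 and 3, with the mean and SD over the arrays beside them. The brighter probe of a gene is marked (a) and the dimmer (b), Krt18, Spint1 (a) and Esrp1 (a) have the closest arrays among probes with a mean above 0.5, and Krt7 has the widest spread.

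Of the 2 cadherins, P-cadherin (Cdh3) had the largest mean ratio of the 10 genes, and E-cadherin (Cdh1) did not keep its sign. Cdh3, a classical cadherin of placenta and basal epithelia, had 2592, 2488 and 4080 in mutant+CT, against 870, 1614 and 1519 in wild type. The groups do not overlap for Cdh3, the 1 of 10 genes for which this held, against 8.91% of all tested genes with every mutant+CT value above every wild-type value. Its ratios were 1.57, 0.62 and 1.43, with a mean of 1.21 ± 0.51 (SD, n = 3), or 2.31-fold, a 95% interval of 0.50 to 1.91 and adjusted p = 0.151 (limma). That mean lies at percentile 96.0 of all tested genes.

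Cdh1 was printed in 10 spots on each array, of which 9 were usable on each, so its spread between spots can be set beside that between arrays. Averaged over spots, its intensities were 6407, 11226 and 13926 in mutant+CT, against 4506, 13246 and 6878 in wild type. On array 2 the wild-type RNA was the brighter one. Single spots ran from 0.29 to 0.73 in log2 ratio on array 1, from -0.36 to -0.09 on array 2 and from 0.96 to 1.07 on array 3, and the ranges of the 3 arrays do not overlap. The SD over spots was 0.147, 0.069 and 0.033, against 0.632 between the arrays. The 307 kept probes with as many spots had median SDs of 0.078, 0.060 and 0.046. Spots of 1 array share their RNAs and dyes, so the spread over spots covers the error of spotting and reading alone. Brightness was less steady than the ratio, since the mutant+CT intensities of single Cdh1 spots spanned 3.39-fold on array 1, 1.81-fold on array 2 and 1.19-fold on array 3. Over the arrays the ratio of Cdh1 was 0.43 ± 0.63 (SD, n = 3), with a 95% interval of -0.35 to 1.21 and adjusted p = 0.582 (limma). The mean of Cdh1 was 0.76 without array 2 and 0.13 without array 3. The ratio of Cdh3 exceeded that of Cdh1 by 1.07, 0.86 and 0.41 on the arrays (exact two-sided sign-flip p = 0.25, adjusted p = 0.312). This pair too was chosen after values were seen, and 3 arrays allow no smaller p.

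**Figure D3:**
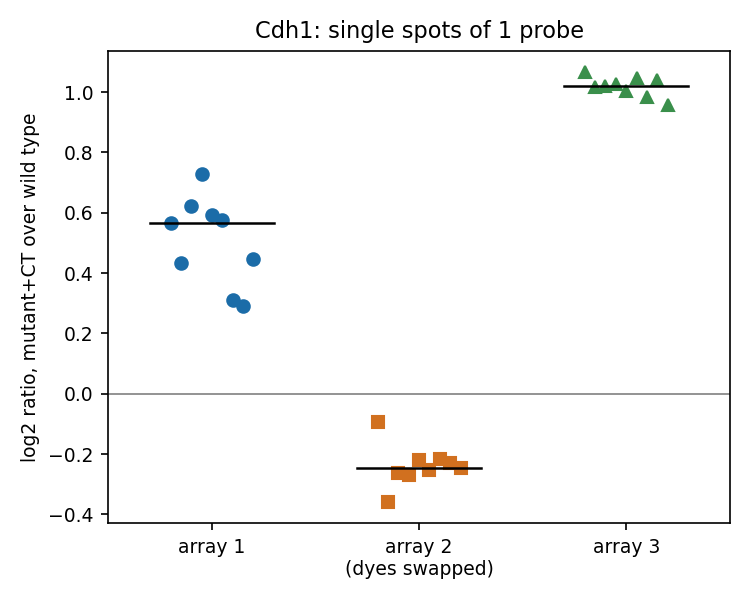
Log2 ratio (mutant+CT over wild type) of the 9 usable Cdh1 spots of each array, with a line at the median of 0.57, -0.25 and 1.02. All spots of arrays 1 and 3 lie above 0 and all spots of array 2, on which the dyes were swapped, below 0.

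Epcam, a surface molecule of epithelia and stem cells, followed the order of Cdh1 over the arrays. It had 5482, 10286 and 9588 in mutant+CT, against 3263, 11368 and 3516 in wild type. The wild-type RNA of array 2 was the brightest of the 6. The Epcam ratios were 0.75, -0.14 and 1.45, with a mean of 0.68 ± 0.80 (SD, n = 3) and adjusted p = 0.436 (limma). The mean of Epcam was 1.10 without array 2 and 0.30 without array 3. By the root mean square difference of ratios over the 3 arrays, Cdh1 was place 238 of 20388 genes in likeness to Epcam. The ratio of array 2 minus the mean of arrays 1 and 3 was between -1.24 and -0.88 for Epcam, Cdh1 and Cdh3, while it was 1.48 for Krt7 and 0.99 for Krt19, against a median size of 0.50 over all tested genes. When the fit was given a term for the dye, that term had an adjusted p of 0.470 to 0.598 in these 5 genes (limma).

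Esrp1, which directs epithelial splicing of transcripts such as those of FGF receptors and CD44, was higher on every array at both of its probes. Its brighter probe had 3006, 6105 and 3603 in mutant+CT, against 2258, 3885 and 2278 in wild type. Array 2 was the brightest in both groups, and within each array mutant+CT was above wild type. The Esrp1 ratios were 0.41, 0.65 and 0.66, with a mean of 0.58 ± 0.14 (SD, n = 3), or 1.49-fold, a 95% interval of 0.03 to 1.12 and adjusted p = 0.293 (limma). The second Esrp1 probe, which lies in another part of the gene and was dim, gave 0.46, 0.05 and 0.34, with a mean of 0.29 ± 0.21. Esrp2, its paralog with an overlapping role, had ratios of -0.26, 0.34 and 0.16. Esrp1 exceeded Esrp2 by 0.49 ± 0.18 (SD, n = 3, exact two-sided sign-flip p = 0.25, adjusted p = 0.312), again in a pair chosen after values were seen and at the smallest p possible.

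The protease and its inhibitor were both higher on every array. Matriptase (St14) had 1556, 4830 and 2781 in mutant+CT, against 1076, 1953 and 1455 in wild type. The groups overlap, since the wild-type RNA of array 2 was brighter than the mutant+CT RNA of array 1. Its ratios were 0.53, 1.31 and 0.93, with a mean of 0.92 ± 0.39 (SD, n = 3), or 1.90-fold, a 95% interval of 0.29 to 1.56 and adjusted p = 0.192 (limma). Spint1, which inhibits matriptase, had 4007, 15863 and 5947 in mutant+CT at its brighter probe, against 2660, 9365 and 3929 in wild type. Both RNAs of array 2 stand above those of the other arrays, so the groups overlap although every pair runs the same way. The Spint1 ratios were 0.59, 0.76 and 0.60, the narrowest spread of the 10 genes, with a mean of 0.65 ± 0.10 (SD, n = 3), or 1.57-fold, a 95% interval of 0.11 to 1.19 and adjusted p = 0.246 (limma). The adjoining Spint1 probe gave 0.39, 1.17 and 0.45, with a mean of 0.67 ± 0.43. The protease exceeded its inhibitor by -0.06, 0.55 and 0.34 on the arrays (exact two-sided sign-flip p = 0.5, adjusted p = 0.5).

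In the pattern over the 3 arrays, some genes of different roles lay close together, by pairs chosen after their values were seen. Esrp1 was place 47 of 20388 genes in likeness to Spint1, St14 was place 54 to Krt19, and Spint1 place 242 to Krt18. Krt18 was place 7889 in likeness to Krt8, its filament partner, and Krt8 place 2550 in likeness to Krt18. Cdh3 was place 10113 in likeness to Cdh1, its neighbour on the chromosome, and Cdh1 place 2063 in likeness to Cdh3. The genes outside the list nearest to Krt8 were Vti1b, Ppih and Cltrn, with root mean square differences of 0.023, 0.031 and 0.036, and those nearest to Cdh1 were Wdr76, Vcpkmt and Znhit6, with 0.030, 0.036 and 0.046. With 3 arrays such likeness is a description only.

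Other genes of the same epithelial machinery were read from lists, of which 0 members passed limma over all genes. Desmosome genes, which anchor keratin filaments at cell contacts, were the list whose median was closest to that of the 10 genes. Their median was 0.71 and 7 of 8 tested members were above 0 on every array, against 20.3% of all genes. That count includes ratios near 0, namely Pkp2 at 0.0016 and Dsc2 at 0.10 on array 2, Ppl at 0.013 on array 1 and Dsp at 0.065 on array 3. Evpl, an envelope protein linked to desmosomes, had 0.76 ± 0.28, Perp, a desmosomal membrane protein, 0.91 ± 0.54, and Dsg2, a desmosomal cadherin, 0.68 ± 0.29 (log2 ratios, SD, n = 3). Their adjusted p were 0.225, 0.232 and 0.263 (limma). The desmosome median was 0.48 without array 1 and 0.56 without array 2.

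Epithelial transcription factors, with Esrp2, had a median of 0.45, with 4 of 12 above 0 and 1 below 0 on every array. Among the members above 0, the grainyhead factors Grhl3 and Grhl1 had the largest mean ratios. Grhl3 had 1447, 2857 and 4214 in mutant+CT, against 596, 1301 and 920 in wild type, and Grhl1 had 774, 630 and 1162, against 290, 395 and 244. Their mean ratios were 1.54 ± 0.58 and 1.45 ± 0.79 (SD, n = 3), with adjusted p of 0.120 and 0.163 (limma), and that of Grhl2, chosen after its values were seen, was 0.87 ± 0.42 (0.217). Tfap2a, a factor of surface ectoderm and neural crest, ran the other way, with 294, 197 and 192 in mutant+CT, against 554, 678 and 1115 in wild type and a ratio of -1.74 ± 0.81 (adjusted p = 0.129).

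Adherens junction partners had a median of 0.02, with 1 of 10 above 0 and 3 below 0 on every array, against 17.4% of all genes below 0. N-cadherin (Cdh2), the cadherin of neural and mesenchymal cells, had 8671, 1768 and 1186 in mutant+CT, against 23380, 4290 and 32300 in wild type. Its ratios were -1.43, -1.28 and -4.77, with a mean of -2.49 ± 1.97 (SD, n = 3) and adjusted p = 0.214 (limma). Cdh1 exceeded Cdh2 in ratio by 1.94, 1.04 and 5.79 on the arrays (exact two-sided sign-flip p = 0.25, adjusted p = 0.312). Here as well the pair was chosen after values were seen, and 3 arrays allow no smaller p. The nectins Nectin2 and Nectin1, which start cell contacts beside cadherins, had -0.80 ± 0.45 and -1.05 ± 0.89, with adjusted p of 0.247 and 0.283. The median of this list was -0.26 without array 1 and -0.15 without array 2.

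Stratified and other keratins had no common direction. Their median was -0.15, with 2 of 9 tested above 0 and 2 below 0 on every array, and Krt1, Krt4, Krt6a and Krt12 were not tested because they did not pass the filter on dim probes. The median was -0.05 without array 1, -0.19 without array 2 and 0.05 without array 3. Krt23, a type I keratin, had 202, 354 and 231 in mutant+CT, against 807, 994 and 610 in wild type. Its ratio was -1.63 ± 0.32 (SD, n = 3, limma adjusted p = 0.090). Krt20, a gut keratin, had 0.96 ± 0.71 (0.264), and Krt17, of basal and injured epithelia, 1.02 ± 1.14 (0.372). The stratified keratins Krt5 and Krt14 had -0.15 ± 0.35 and 0.12 ± 0.41.

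Surface proteases and their inhibitors had a median of 0.08, with 5 of 10 above 0 and 1 below 0 on every array. Tmprss2, a membrane serine protease, had 0.88 ± 0.26 (SD, n = 3, limma adjusted p = 0.181), and Spint2, the paralog of Spint1, 0.58 ± 0.48 (0.386). The median of this list was 0.11 without array 1 and 0.16 without array 2 or 3. Polarity and trafficking genes had a median of 0.16 (0.44 without array 1, -0.05 without array 2), with 5 of 13 above 0 and 2 below 0 on every array. In that list Cldn7, a claudin that binds Epcam, had 0.68 ± 0.20 (0.247), Pard3, a polarity scaffold, 0.64 ± 0.37 (0.307), and Rab25, an epithelial trafficking GTPase, -0.52 ± 0.12 (0.339).

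Repressors and markers of the epithelial to mesenchymal transition had medians of 1.31, -1.23 and -1.13 on arrays 1, 2 and 3, so array 1 was opposite to the others. The medians of the 10 epithelial genes were above 0 on all 3 arrays. The median of this list over the arrays was -0.47, with -1.20 without array 1, 0.20 without array 2 and -0.06 without array 3. Snai1, a repressor of Cdh1, was lower on every array, with 885, 1714 and 1107 in mutant+CT, against 2332, 7260 and 2222 in wild type and a ratio of -1.50 ± 0.55 (SD, n = 3, limma adjusted p = 0.120). The other Snail and Zeb factors of the list, added after their values were seen, were above 0 on array 1 only. Snai2 had 2.93, -3.50 and -1.65 on the arrays, Zeb1 0.60, -1.21 and -2.03, and Zeb2 1.17, -0.84 and -1.47. Vimentin (Vim), the mesenchymal filament protein, had 0.89, -2.89 and -3.20 (0.403), and fibronectin (Fn1) 1.12 ± 0.56 (0.178). 

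**Figure D4:**
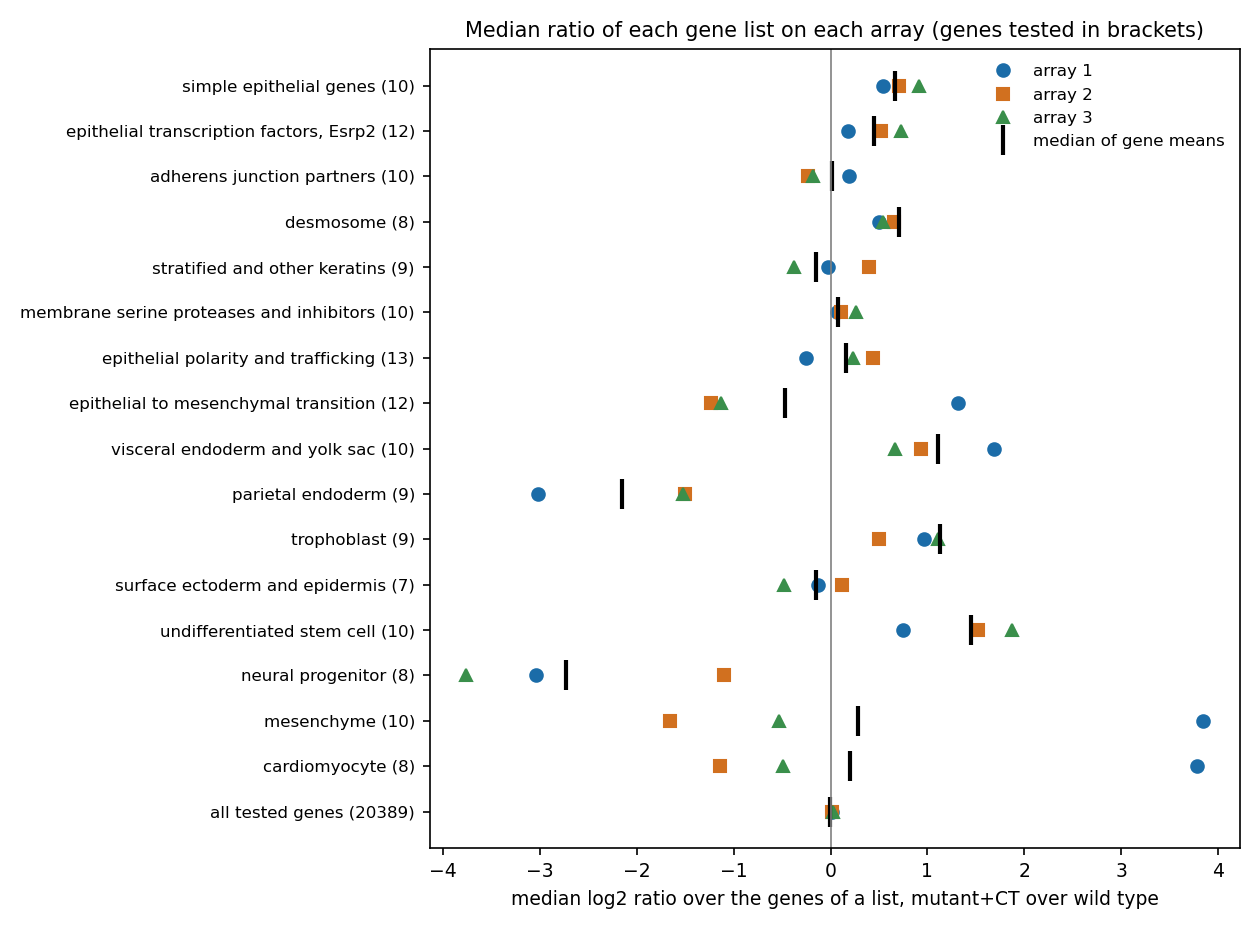
Median log2 ratio (mutant+CT over wild type) over the tested genes of each list on arrays 1, 2 and 3, with a bar at the median of the genes' means. The 10 simple epithelial genes and the desmosome list lie between 0.50 and 0.92 on all arrays. Visceral endoderm, trophoblast, stem cell, epithelial transcription factor and surface protease lists also lie above 0 on all arrays. Mesenchyme, cardiomyocyte and epithelial to mesenchymal transition genes lie above 0 on array 1 and below 0 on arrays 2 and 3.

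Promoter letters were read because Snai1 and Zeb factors bind the E-box CACCTG. The RefSeq table (GRCm38.p6) held promoters for 5 of the 10 genes, Krt7, Krt8, Krt18, Epcam and Spint1. In the 250 bases before the start site, searched on both strands, CACCTG was present in 4 of these 5 and in 17.2% of all 32851 promoters of that length. The 4 are shown 5′ to 3′ in the direction of the gene, with CACCTG or its reverse complement in capitals.
Krt8, chr15:102004343-102004592, minus strand: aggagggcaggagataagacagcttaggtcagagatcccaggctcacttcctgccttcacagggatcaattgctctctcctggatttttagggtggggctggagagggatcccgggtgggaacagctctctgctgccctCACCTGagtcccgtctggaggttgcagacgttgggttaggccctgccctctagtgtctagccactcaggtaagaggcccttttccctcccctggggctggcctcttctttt
Krt18, chr15:102027966-102028215, plus strand: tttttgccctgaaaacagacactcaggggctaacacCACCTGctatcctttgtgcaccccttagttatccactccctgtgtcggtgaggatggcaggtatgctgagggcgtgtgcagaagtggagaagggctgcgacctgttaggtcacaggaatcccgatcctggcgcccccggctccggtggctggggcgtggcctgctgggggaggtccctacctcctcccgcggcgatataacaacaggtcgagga
Krt7, chr15:101412153-101412402, plus strand: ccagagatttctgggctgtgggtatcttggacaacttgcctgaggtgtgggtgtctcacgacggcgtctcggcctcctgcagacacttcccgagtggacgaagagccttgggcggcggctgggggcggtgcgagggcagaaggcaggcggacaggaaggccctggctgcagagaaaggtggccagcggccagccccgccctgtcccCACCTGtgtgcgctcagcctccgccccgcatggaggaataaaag
Epcam, chr17:87635729-87635978, plus strand: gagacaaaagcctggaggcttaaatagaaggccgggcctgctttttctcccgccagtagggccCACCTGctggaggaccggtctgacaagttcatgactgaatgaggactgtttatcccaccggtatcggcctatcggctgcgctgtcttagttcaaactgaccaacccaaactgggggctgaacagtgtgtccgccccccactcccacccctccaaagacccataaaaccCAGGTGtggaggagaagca
The match begins 111 bases before the start in Krt8, 214 in Krt18, 44 in Krt7, and 187 and 19 in Epcam. The grainyhead motif AACCNGTT, the AP-1 motif TGANTCA and the TATA box TATAAA were in 0 of the 5, against 1.79%, 6.75% and 12.4% of all promoters. The GC box GGGCGG was in Krt7, Epcam and Spint1, against 32.7% of all. No motif overlaps another in these 5. A match describes letters and is not a bound site. Any part of Snai1 or Zeb factors in the ratios of these genes was not tested.

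Markers of cell types that carry these genes had list medians above 0 in 3 lists, of which 0 members passed limma over all genes, and their part in the epithelial ratios was not tested. Visceral endoderm and yolk sac markers, an epithelium, had a median of 1.11, and 8 of 10 were above 0 on every array, with summed intensities of 154293 to 380184 in mutant+CT, against 50355 to 199357 in wild type. Their defining markers Afp, Ttr and Apoa1 had ratios of 1.55 ± 1.02, 0.84 ± 0.80 and 2.12 ± 0.58 (SD, n = 3). Trophoblast markers had a median of 1.14, and 6 of 9 tested were above 0 on every array, with sums of 23691 to 44119 in mutant+CT, against 9251 to 11085 in wild type. Such sums weigh bright probes most. Gcm1, the brightest trophoblast marker in mutant+CT, had 23520, 10920 and 28160 there, against 1756, 3135 and 2215 in wild type. Of the defining trophoblast markers, Cdx2 had 1.62, 0.50 and -0.84 on the 3 arrays, Eomes 1.14 ± 1.06 and Elf5 -0.05 ± 0.22. The Elf5 probe was dim, at 96.4 to 121 in the 6 RNAs. Undifferentiated stem cell markers had a median of 1.45 and sums of 157541 to 524583 in mutant+CT, against 62552 to 99772 in wild type, and 8 of 10 were above 0 on every array. Pou5f1 had 1.26 ± 0.61, Nanog 0.09 ± 0.09 and Zfp42 2.17 ± 1.22. The Nanog probe was dim, at 100.6 to 121 in the 6 RNAs. Dppa5a, the brightest stem cell marker, had 82970, 80870 and 309800 in mutant+CT, against 48320, 19110 and 38760 in wild type.

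Other marker lists ran the other way or without a common direction. Parietal endoderm markers, of cells that also carry Krt8 and Krt18, had a median of -2.15, and 8 of 9 were below 0 on every array, with sums of 77880 to 291660 in mutant+CT, against 323215 to 636560 in wild type. Lama1 had -2.44 ± 1.02 and Col4a1 -2.68 ± 1.03, but Sparc 0.17 ± 0.35 (SD, n = 3). Neural progenitor markers had a median of -2.73, and 6 of 8 were below 0 on every array, with sums of 1537 to 2396 in mutant+CT, against 2725 to 38675 in wild type. Pax6 had -3.19 ± 1.35, Sox1 -3.11 ± 1.37 and Hes5 -3.92 ± 1.49. Surface ectoderm and epidermis markers had a median of -0.15 and sums of 3876 to 6530 in mutant+CT, against 4377 to 7778 in wild type, with 0 of 7 tested above 0 and 2 below 0 on every array, and the median was -0.21 without array 1, -0.31 without array 2 and 0.05 without array 3. Its defining markers Krt14, Krt5 and Trp63 had 0.12 ± 0.41, -0.15 ± 0.35 and 0.06 ± 0.66, with Krt5 read by a dim probe. Mesenchyme and cardiomyocyte markers had medians of 3.85 and 3.79 on array 1, -1.66 and -1.15 on array 2, and -0.53 and -0.49 on array 3. Their sums were 7588 to 218810 and 6609 to 71291 in mutant+CT, against 15351 to 34410 and 7361 to 9297 in wild type. Col1a1 had 4.73, -3.23 and 0.41 on the arrays, Col3a1 4.54, -2.16 and -1.93, Pdgfra -1.07 ± 0.54, Myl7 4.05, -1.78 and -1.71, Tnnt2 3.78, 1.18 and -0.26, and Actc1 3.79, -1.42 and -1.76. None of the tested markers of these 8 lists was below background in every array of either group.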

How the data were processed

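The authors deposited scanner files with intensity values, the mean brightness of each spot and the median of its local background, which per the file headers came from Feature Extraction 10.7.3.1, with processed intensity and a log10 ratio beside them. The deposited value table holds log2 ratios normalized by the authors, with limma per the submitters' processing notes and steps not given in the sources used here. Its columns (medians -0.02, 0.01 and -0.02) follow the ratios used here at correlations of 0.994, 0.996 and 0.998, so they run as mutant+CT over wild type.

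In R 4.3.3 with limma 3.58.1, background was corrected with normexp (offset 50) and dyes with loess within arrays, control spots at weight 0 and outlier-marked spots missing. No scaling between arrays was done in the main fit, and spots of a probe were averaged. Probes well above background on all 3 arrays in mutant+CT or in wild type were kept (26317 of 39429), and each of 20389 genes is represented by its brightest kept probe. The test was limma's moderated one of the mean ratio against 0, so the RNAs of an array are paired. The labels call the replicates biological. Gene names came from RefSeq by accession (30708 of 43020 spots), otherwise from the files. The number of arrays limits the precision.

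The 10 genes and the lists were chosen with earlier results of these data known. Named by rule were the 10 genes, the 3 genes of smallest p per pathway list, the 3 defining markers per cell type, and the 3 genes most like Krt8 and Cdh1. A gene that this rule names is not reported here. Alternatives covered background, normalization, filters, probes, the deposited table, dye, variance prior, array pairing and leaving out each array.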

Additional observations from a re-analysis of the deposited data

How the results depend on the processing

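Of 140 values of the 10 ratios under 14 alternatives, 139 stayed above 0 and 0 had an adjusted p under 0.05 in limma (smallest 0.129, Cdh3 with a trended and robust variance prior). The exception in sign was Krt7 without array 2, at -0.035, and its values without 1 array ran from -0.035 to 1.17. The median of the 10 genes ran from 0.60 to 0.80 without 1 array. Of the 10 genes, 0 reached a 2-fold difference on every array, and 0 to 1 did so without 1 array (Cdh3 without array 2). The count of all genes called was 0, but 290 on Agilent's processed signals, 12 with the filter in both channels, 176 with a trended and robust variance prior, 90 with no replicate block, where the pairing of RNAs by array is ignored, 298 at an adjusted p under 0.1, and 0 to 147 without 1 array (147 without array 1), and 3211 genes had an unadjusted p under 0.05. None of the 10 genes was among those called under any of these settings. The count of genes above 0 on every array, added after the data were seen, was 6 of 10 in the deposited table, against 18.8% of all genes. The count of the 10 higher at an unadjusted p under 0.05, also added then, was 6, but 2 on Agilent's processed signals, 2 with no replicate block, and 2 to 5 without 1 array.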
